A study of Mus musculus with 12 samples.

Results

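Liver tumors driven by c-MYC and MCL1 were compared, after everolimus, with normal liver, to describe which tumor features remained under the drug and which liver genes stayed lost or returned. The comparison held 6 of the 12 libraries of the series, 3 of everolimus-treated tumors and 3 of normal livers, and the 3 vehicle-treated tumors gave the level without drug. Members were chosen by the group labels, and no expression value entered the rule, but earlier results of these data were known. Normal livers came from wild-type C57BL/6 mice, for which the sources used here name no treatment. The *Rictor* fl/fl and *Tsc2* fl/fl lines crossed for the tumor mice were on a C57BL/6J background. All tumors, vehicle-treated ones included, were hepatocellular carcinomas (HCCs) of the genotype RictorKOTsc2KO: plasmids for c-MYC, MCL1 and Cre recombinase had been pushed into hepatocytes by hydrodynamic tail vein injection of *Rictor* fl/fl *Tsc2* fl/fl mice. The transgenes were driven by an EF1α promoter and Cre by a CMV promoter, neither of which is particular to the liver. By the labels and the study's methods, everolimus was given by gavage at 1 mg/kg per day, 6 days a week for 3 weeks. Dosing began 6 days after injection, and mice were sacrificed 3.7 weeks after injection. The study's results text, where it describes this RNA-seq experiment, instead gives 3 days of treatment. Which course these tumors had cannot be told from the sources used here, and the libraries were used as labelled. *Rictor* and *Tsc2* were deleted in both tumor groups and not in the normal livers, so the deletions and the drug cannot be told apart against normal liver, and all drug effects are those on this background. The age of the mice is not given in the sources used here. Neither injection nor gavage is given for the normal livers, so tumor, injection and handling cannot be told apart in a comparison with them.

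Everolimus, a relative of rapamycin, inhibits mTORC1, the growth-controlling kinase complex that TSC2 restrains. Active mTORC1 promotes ribosome production, nucleotide synthesis and amino acid uptake through the transcription factor ATF4, and it keeps TFEB and TFE3, the activators of lysosomal genes, out of the nucleus. Adult hepatocytes devote much of their RNA to plasma proteins, cytochrome P450 enzymes, bile acid synthesis and nitrogen disposal. Hepatocellular carcinomas commonly lose part of this program, divide and switch on oncofetal genes, which are active in fetal liver and silent in the adult.

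The values were FPKM (fragments per kilobase of transcript, relative to the size of the library), and tests used log2(FPKM + 1), so log2 differences of low genes are understated. Whole reads could be recovered from the FPKM and numbered 17839224 to 18590334 per normal liver, 18716061 to 20325997 with vehicle and 17164356 to 25179650 with everolimus. For a 2 kb transcript 3 reads stood for 0.0495 to 0.144 FPKM, and lower values were at the limit of detection. The authors' FPKM carried a scaling beyond the read totals, whose factor was 0.585 to 0.596 for normal liver, 1.12 to 1.15 for vehicle and 1.1 to 1.2 for everolimus, and the balance of higher and lower genes moved with this scaling. Everolimus replicate 2 stood apart: across genes its log2 values correlated with those of the normal livers at r of 0.781 to 0.808, against 0.722 to 0.751 for everolimus replicates 1 and 3. Results that rest on that library are given with and without it. Each library was labelled as a separate sample, but the labels do not say how many animals a tumor library pooled. In whole tissue, fewer cells of a type and less RNA per cell cannot be told apart.

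The targeted genes were read first. *Tsc2* (ENSMUSG00000002496.10, chr17:24595816-24632630 of GRCm38) was at 5.21, 5.32 and 4.5 FPKM in normal liver (replicates 1 to 3), at 2.24, 2.01 and 2.31 with vehicle and at 2.78, 2.82 and 2.87 with everolimus. All 3 everolimus-treated tumors lay below all 3 normal livers, but the log2 difference of -0.65 was not called (limma's treat test, adjusted p = 0.579) and turned to 0.28 when every library was rescaled to the same FPKM sum and to 0.09 with plain library totals. *Rictor* was at 1.99, 1.65 and 2.57 FPKM in normal liver tissue and 1.58, 1.93 and 1.62 with everolimus, ranges that overlapped, and its log2 difference of -0.17 turned to 0.57 at the same sum and to 0.41 with plain totals. Both values cover whole transcripts, do not single out the deleted exons, and include RNA of cells that took up no Cre. *Mcl1*, an antiapoptotic gene, was at 50.2, 53.9 and 53.2 FPKM in normal liver tissue and 235, 354 and 270 with everolimus, a log2 difference of 2.41 ± 0.29 (SE; treat adjusted p = 1.79e-04). *Myc* was at 12.2, 4.01 and 6.42 FPKM in normal liver tissue and 0.799, 3.01 and 0.99 with everolimus, with all tumors below all normal livers (log2 difference -1.70, treat adjusted p = 0.0135). This call was lost at the same sum (-0.78), with plain library totals (-0.95), and without everolimus replicate 1 (-1.48), everolimus replicate 3 (-1.55) or normal liver replicate 1 (-1.33). Whether reads of the c-MYC and MCL1 transgenes entered these values is not given in the sources used here.

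Of 14397 tested genes, 2433 (16.9%) were higher and 2646 (18.4%) were lower in everolimus-treated tumors than in normal livers, by limma's treat test, which asks for more than a 1.5-fold change, at a Benjamini-Hochberg adjusted p under 0.05. The 3 tumors were without exception above the 3 normal livers for 5544 genes (38.5%) and without exception below for 5092 (35.4%). Vehicle-treated tumors differed from the same normal livers by 2282 genes higher (15.9%) and 2428 lower (16.9%). Everolimus and vehicle differed far less, with 292 genes higher (2.03%) and 675 lower (4.69%) with everolimus by limma's moderated test with a fold change over 1.5, and with 5 (0.0347%) and 82 (0.57%) by treat. Single libraries moved those counts: 112 genes were higher and 371 lower without everolimus replicate 1, 145 and 367 without vehicle replicate 3, and 182 were higher without vehicle replicate 1. The balance against normal liver depended on scaling. With FPKM rescaled to the same sum, 5956 genes were higher and 927 lower, so that the higher share of called genes went from 47.9% to 86.5%, and the median log2 difference of all tested genes was 0.76 in place of 0.06. With library totals alone, an alternative added once the data had been seen, the counts were 5196 and 1156, and the higher share was 81.8%.

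The path from normal liver through vehicle to everolimus was described by 4 classes. Because they share the normal livers or the vehicle libraries, their sizes are descriptions without a test. Of the 2428 genes lower in vehicle-treated tumors, 2216 stayed lost, meaning that they were also called lower with everolimus, and 58 returned, meaning that they were higher with everolimus than with vehicle. Of the 2282 genes higher in vehicle-treated tumors, 1840 remained higher with everolimus and 290 receded, meaning that they were lower than with vehicle. A gene may be in 2 classes: 39 of the 58 returned genes were still called lower than normal liver, and 74 of the 290 receded genes were still called higher. The genes that stayed lost were at a median of 18.5% of the normal liver mean with everolimus and 18.8% with vehicle. Those that remained were at a median of 4.68 times normal, where all tested genes had a median of 105% of normal. At the same FPKM sum, 778 liver genes that stayed lost and 5254 tumor genes that remained were counted.

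Oncofetal genes stayed high under everolimus. Of 22 tested oncofetal genes, 16 were higher with everolimus than in normal liver and 0 lower, against 16.9% and 18.4% of all tested genes. The list was made of genes silent in adult liver, and members near 0 there could hardly be called lower. Of 27 listed genes, 22 passed the filter on FPKM, which silent genes can pass through the tumors alone. The direction of this split was thus largely set by the choice of the list. Of the 16, 15 had already been higher with vehicle. *H19*, an imprinted noncoding RNA of fetal tissue (chr7:142575529-142578143 of GRCm38), was at 1.39, 1.14 and 0.039 FPKM in normal liver (replicates 1 to 3), 5360, 4840 and 3880 with vehicle and 6980, 5140 and 7530 with everolimus. Its log2 difference from normal liver was 11.86 ± 0.35 (SE; treat adjusted p = 8.77e-10), the largest among the 2433 genes called higher. *Igf2*, the fetal growth factor expressed from the neighboring locus, was at 0.0162, 0 and 0 FPKM in normal liver tissue, at the limit of detection, and at 89, 71.2 and 94.5 with everolimus. The normal and tumor values of these genes were separated by orders of magnitude in every library.

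The *Bex* family of small X-linked proteins was raised throughout: 4 of 4 tested members were higher than in normal liver. Their summed FPKM were 3.43, 4.29 and 1.89 in normal liver, 1062, 775 and 834 with vehicle and 604, 366 and 722 with everolimus. *Bex1* was at 0.156, 0 and 0.0808 FPKM in normal liver tissue and 136, 94.1 and 184 with everolimus (log2 difference 6.96). *Tff3*, a secreted trefoil peptide, was at 2.63, 4.6 and 2.33 FPKM in normal liver tissue and 383, 170 and 304 with everolimus (log2 difference 6.06), and everolimus replicate 2 was the lowest tumor for both genes. The fetal proteoglycan *Gpc3* was at 0.483, 0.641 and 0.428 FPKM in normal liver tissue and 3.4, 10.4 and 4.12 with everolimus, with a log2 difference of 2.07 ± 0.30 (SE; treat adjusted p = 8.62e-04). With all libraries *Gpc3* was not called against vehicle. Without everolimus replicate 2 it was called lower than with vehicle (log2 difference -1.09, moderated adjusted p = 0.0067). For *Fabp6*, an ileal bile acid-binding protein, all normal livers were listed at 0 and the everolimus-treated tumors held 130, 15.6 and 204 FPKM, a spread of more than an order of magnitude. By voom on the recovered reads the rise of *Fabp6* was not called (log2 difference 9.53, treat adjusted p = 0.0927). *Lgals2*, a galectin, was at 0.94, 0.306 and 0.486 FPKM in normal liver tissue and at 284, 224 and 188 with everolimus, with no tumor near the normal range.

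Serine and lipid synthesis genes were among the 12 largest rises. *Phgdh*, the first enzyme of serine synthesis, was at 0.298, 4.78 and 0.308 FPKM in normal liver (replicates 1 to 3), and at 284, 173 and 266 with everolimus, with a log2 difference of 6.79 ± 0.46 (SE; treat adjusted p = 4.99e-07). Normal liver replicate 2 was the high one of its group for *Phgdh* and also for *Psat1*, the next enzyme of the path, at 0.85, 9.78 and 0.428 FPKM. The tumors held 208, 157 and 249 FPKM of *Psat1*. *Scd2*, the stearoyl-CoA desaturase of fetal and non-hepatic tissue, was at 1.17, 1.71 and 1.44 FPKM in normal liver tissue and 200, 161 and 269 with everolimus, whereas *Scd1*, its adult liver counterpart, was at 529, 755 and 725 FPKM in normal liver tissue and 12.9, 21.5 and 41.8 with everolimus. The adult gene fell (log2 difference -4.80) and the fetal gene rose (6.41). *Isyna1*, which makes inositol phosphate from glucose 6-phosphate, was at 2.4, 4.24 and 2.91 FPKM in normal liver tissue and 361, 290 and 304 with everolimus.

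**Figure D1:**
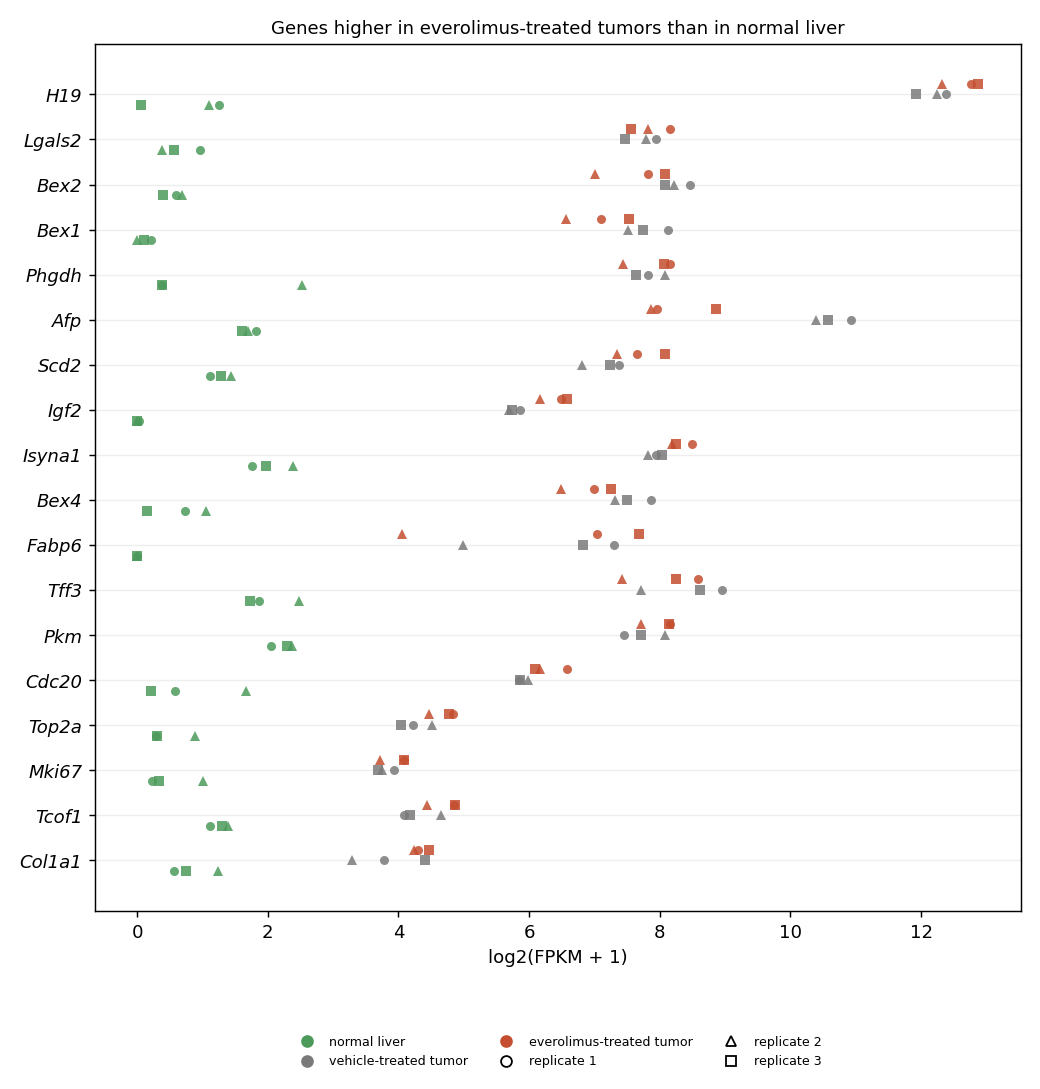
Levels of 18 genes in each library, as log2(FPKM + 1) on the x axis, for the 12 genes with the largest rise from normal liver and 6 genes of proliferation, glycolysis, nucleolus and stroma. Each symbol is 1 library, circles, triangles and squares being replicates 1, 2 and 3; vehicle-treated and everolimus-treated tumors lie to the right of all normal livers for every gene shown, and *Afp* is the gene at which everolimus lies well below vehicle.

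Cell division genes were high under everolimus. Of 44 tested mitosis genes, 43 were higher than in normal liver and 1 was lower, and limma called 0 of the 44 against vehicle, with 0 at an unadjusted p under 0.05 and 0 by voom on the recovered reads. Of all tested genes 16.9% were higher and 18.4% lower than in normal liver, and 2.03% were higher and 4.69% lower than with vehicle. These shares are to be set beside this and the later list counts. *Mki67*, the proliferation marker, was at 0.166, 1.01 and 0.267 FPKM in normal liver tissue, 14.3, 12.5 and 11.9 with vehicle and 15.9, 12.2 and 16 with everolimus. *Top2a*, which untangles replicated DNA, was at 0.226, 0.855 and 0.234 FPKM in normal liver tissue, 17.7, 21.9 and 15.5 with vehicle and 27.6, 21.1 and 26.4 with everolimus. *Cdc20*, the activator of the anaphase-promoting complex, was at 0.496, 2.18 and 0.154 FPKM in normal liver tissue and 94.8, 71.2 and 67.5 with everolimus (log2 difference 5.47 ± 0.45, SE; treat adjusted p = 2.58e-06). The member that fell was *Pttg1*, the anaphase inhibitor securin, at 22, 23.1 and 24.4 FPKM in normal liver tissue and 5.16, 4.97 and 4.05 with everolimus. It was low with vehicle too, at 6.63, 6.12 and 5.26 FPKM, and its fall was not called at the same FPKM sum.

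DNA replication genes followed the same pattern, with 33 of 41 tested members higher than in normal liver and 1, *Mcm10*, lower. *Mcm2*, a subunit of the replicative helicase, was at 0.947, 1.15 and 0.4 FPKM in normal liver tissue and 19.3, 16.1 and 20 with everolimus, and *Rrm2*, a subunit of ribonucleotide reductase, at 1, 2.85 and 1.45 FPKM in normal liver tissue and 63.5, 46.5 and 63.1 with everolimus. Neither gene was called against vehicle, with log2 differences of 0.48 and -0.01. *Pold1*, the catalytic subunit of DNA polymerase delta, went further up with everolimus, from 4.45, 3.55 and 3.28 FPKM with vehicle to 8.69, 6.77 and 8.52 (log2 difference 0.92, moderated adjusted p = 0.0170). Without everolimus replicate 1, everolimus replicate 3 or vehicle replicate 3 that call was lost (adjusted p of 0.0719, 0.0558 and 0.0760).

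Growth machinery that mTORC1 and MYC are known to drive was also still high. Of 42 nucleolar genes of ribosome production, 40 were higher than in normal liver and 0 lower. *Tcof1*, a cofactor of ribosomal RNA transcription, was at 1.16, 1.62 and 1.46 FPKM in normal liver tissue, 16, 24.2 and 17 with vehicle and 28, 20.6 and 28.3 with everolimus, and *Npm1*, the abundant nucleolar chaperone, at 100, 112 and 128 FPKM in normal liver tissue, 566, 773 and 506 with vehicle and 896, 591 and 763 with everolimus. Of 33 nucleotide synthesis genes 20 were higher and 1, *Paics*, lower, which was not called at the same FPKM sum. *Impdh1*, which commits purines to guanine nucleotides, was at 1.27, 1.51 and 1.4 FPKM in normal liver tissue and 37.5, 36.8 and 40.6 with everolimus, and *Cad*, the enzyme that starts pyrimidine synthesis, at 2.03, 2.45 and 1.49 FPKM in normal liver tissue and 42.3, 31.9 and 34.9 with everolimus. *Pfas*, a purine synthesis enzyme, was higher with everolimus (15, 12.7 and 13.9 FPKM) than with vehicle (7.95, 8.92 and 7.72 FPKM), with a log2 difference of 0.69 (moderated adjusted p = 0.00625). Of 21 glycolysis genes 11 were higher and 2 lower. *Pkm*, the pyruvate kinase of proliferating cells, was at 3.15, 4.15 and 3.91 FPKM in normal liver tissue and 285, 208 and 280 with everolimus (log2 difference 5.76 ± 0.21, SE), whereas *Pklr*, the liver isozyme, was at 93.9, 133 and 76.8 FPKM in normal liver tissue and 18.7, 18.6 and 20 with everolimus. The fall of *Pklr* (-2.31) was not called at the same FPKM sum (-1.15, treat adjusted p = 0.0738).

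Cytosolic ribosomal proteins had 28 of 79 members higher and 0 lower, with a median log2 difference of 0.90, and 75 of 79 had all tumors above all normal livers, where 38.5% of all tested genes did. *Rps12* was at 214, 219 and 191 FPKM in normal liver tissue and 865, 549 and 683 with everolimus. This count moved with the scaling: at the same FPKM sum 78 of 79 were higher. Many of these genes have near-identical pseudogenes, so the values of single members are uncertain.

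Of the 22 oncofetal genes 6 were lower and 1 was higher with everolimus than with vehicle, where 4.69% and 2.03% of all tested genes were, and 4 of the 6 were among those that receded. *Afp*, alpha-fetoprotein, was at 2.53, 2.23 and 2.05 FPKM in normal liver (replicates 1 to 3), 1950, 1350 and 1520 with vehicle and 247, 232 and 466 with everolimus. Its log2 difference from vehicle was -2.40 ± 0.25 (SE; moderated adjusted p = 2.45e-04), and it was still higher than normal liver by 6.52 ± 0.25 (SE; treat adjusted p = 7.85e-09). *Spink1*, a secreted protease inhibitor, was at 139, 102 and 119 FPKM with vehicle and 57.8, 50.1 and 31.6 with everolimus, against 0.22, 0.215 and 0 in normal liver. Both genes thus fell with the drug and stayed above every normal liver. The transcription factor *Sox4*, at 0.213, 0.0946 and 0.28 FPKM in normal liver tissue, 6.45, 4.35 and 11.2 with vehicle and 2.93, 3.56 and 2.39 with everolimus, had the same pattern. *Epcam*, a surface protein of progenitors and bile ducts, was at 0.682, 1.2 and 0.893 FPKM in normal liver tissue, 3.96, 5.23 and 4.17 with vehicle and 0.311, 1.72 and 0.413 with everolimus (log2 difference from vehicle -1.66, moderated adjusted p = 0.00944), where its tumors straddled the normal range.

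Of the 290 receded genes (179 without vehicle replicate 3, and 75 with treat against vehicle and the moderated test against normal liver) 213 were no longer called against normal liver, and their median level was 256% of normal with everolimus against 1010% with vehicle. *Krt19*, a keratin of bile duct cells, was at 0.65, 0.342 and 0.207 FPKM in normal liver tissue, 29.6, 9.49 and 44 with vehicle and 0.257, 0.944 and 0.325 with everolimus, so that tumors under the drug overlapped normal liver (log2 difference from vehicle -4.04 ± 0.42, SE; moderated adjusted p = 2.38e-04). The tight junction gene *Cldn4* was at 0.102, 0.0999 and 0 FPKM in normal liver tissue, 24.1, 79.5 and 42.6 with vehicle and 0.262, 5.44 and 1.55 with everolimus (log2 difference from vehicle -4.02, moderated adjusted p = 0.00188), and its everolimus values spread over more than an order of magnitude. For *Sprr1a*, a cornified envelope protein induced by stress, every normal liver was listed at 0, vehicle-treated tumors held 47.7, 46.4 and 77.5 FPKM and everolimus-treated tumors 0.985, 4.71 and 5.48. *Muc13*, a membrane mucin, was at 13, 7.48 and 17.6 FPKM with vehicle and 0.0349, 0.391 and 0.119 with everolimus, and *Fabp3*, the heart-type fatty acid-binding protein, at 13.9, 6.74 and 19.9 FPKM with vehicle and 0.0643, 0.562 and 0.195 with everolimus. Both were at 0 in at least 1 normal liver.

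*Ptgr1*, a reductase of prostaglandins and leukotrienes, was at 3.39, 3.08 and 3.71 FPKM in normal liver tissue, 54.1, 35.9 and 61.8 with vehicle and 4.17, 4.34 and 4.81 with everolimus. Everolimus thus lay just above the normal range (log2 difference from normal liver 0.31, not called, and 1.2 and called at the same FPKM sum). *Cpe*, a carboxypeptidase of peptide hormone processing, was at 0.818, 0.348 and 0.367 FPKM in normal liver tissue, 13.7, 20.2 and 22.7 with vehicle and 0.812, 2.49 and 1.49 with everolimus. *Klhl13*, an adaptor of a ubiquitin ligase, went below normal, from 10.4, 11.4 and 13.7 FPKM with vehicle to 0.199, 0.893 and 0.33 against 2.07, 2.56 and 2.48 in normal liver (log2 difference from normal liver -1.22). At the same FPKM sum and with plain totals its difference from normal liver was not called (-0.55 and -0.66). The fall that was largest on the log2 scale was that of the pseudogene *Rps15a-ps7*, at 23.7, 18 and 21.8 FPKM in normal liver tissue, 106, 79.1 and 105 with vehicle and 3.92, 1.6 and 1.95 with everolimus. Its reads may be shared with *Rps15a*, so the value is uncertain. Among 12 tested biliary and progenitor markers, 6 were higher with vehicle than in normal liver, 6 were lower with everolimus than with vehicle (675 of 14397 genes, 4.69%, were), and 1, *Cdh1*, was still higher than in normal liver.

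**Figure D2:**
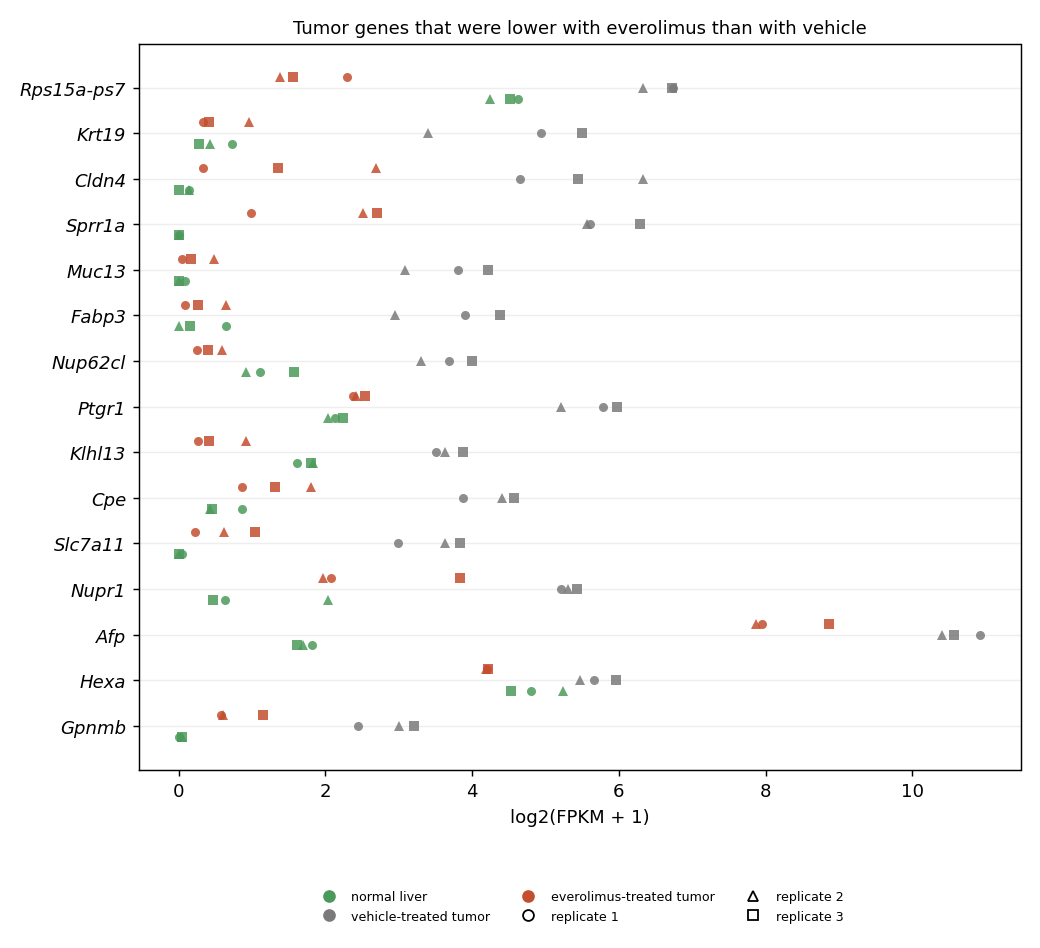
Levels of the 10 receded genes, unnamed gene models aside, with the largest fall and of *Slc7a11*, *Nupr1*, *Afp*, *Hexa* and *Gpnmb* in each library, as log2(FPKM + 1) on the x axis. Each symbol is 1 library, with replicates as circles, triangles and squares; the 3 everolimus libraries lie below the 3 vehicle libraries for every gene, with *Rps15a-ps7*, *Fabp3*, *Nup62cl*, *Klhl13* and *Hexa* at no more than the highest normal liver and *Afp* well above all of them.

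ATF4 targets and amino acid uptake genes were split. Of 31 tested members, 18 were higher with everolimus than in normal liver and 1 lower, while 24 were higher with vehicle. Against vehicle, 6 were lower and 1 was higher with everolimus, where 4.69% and 2.03% of all tested genes were, and all 6 belonged to the receded genes. *Slc7a11*, the cystine importer, was at 0.0266, 0 and 0 FPKM in normal liver tissue, 6.94, 11.4 and 13.3 with vehicle and 0.167, 0.534 and 1.06 with everolimus (log2 difference from vehicle -2.86 ± 0.22, SE; moderated adjusted p = 3.84e-05). *Nupr1*, a stress-induced chromatin protein, was at 0.553, 3.1 and 0.381 FPKM in normal liver tissue, 35.9, 38.7 and 42.1 with vehicle and 3.2, 2.89 and 13.3 with everolimus, with everolimus replicate 3 and normal liver replicate 2 the high libraries of their groups (log2 difference from vehicle -2.69, moderated adjusted p = 0.0103). Without everolimus replicate 1 the adjusted p of *Nupr1* was 0.0518. *Slc7a5*, the leucine importer, was at 1.08, 1.59 and 1.55 FPKM in normal liver tissue, 46.8, 57.8 and 53.3 with vehicle and 41.1, 35.8 and 57.7 with everolimus, and was not called against vehicle. Normal liver replicate 2 held more of the list than replicates 1 and 3, with summed FPKM of 466, 779 and 368 in replicates 1 to 3, against 1487, 1180 and 1826 with everolimus. Without normal liver replicate 2, 19 members were higher and 0 lower.

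Lysosome genes were lower than with vehicle in 21 of 54 cases and higher in 0, where 4.69% of all tested genes were lower. Their summed FPKM were 2144, 2288 and 1971 in normal liver, 2562, 2492 and 2831 with vehicle and 1382, 1496 and 1482 with everolimus. As deposited, the drug-treated tumors thus lay below both other groups. The sums were not rescaled to the same FPKM sum, and their order against normal liver depends on the scaling. Against normal liver 11 were lower and 5 higher, where 18.4% and 16.9% of all tested genes were, and at the same FPKM sum 2 were lower and 16 higher. *Hexa*, a hexosaminidase subunit, was at 27, 36.8 and 22.2 FPKM in normal liver tissue, 49.4, 43.2 and 61.5 with vehicle and 17.4, 17.3 and 17.5 with everolimus (log2 difference from vehicle -1.49 ± 0.18, SE; moderated adjusted p = 5.38e-04). *Gla*, alpha-galactosidase, was at 4.57, 3.25 and 4.49 FPKM in normal liver tissue, 12.5, 16.9 and 13.8 with vehicle and 4.17, 4.92 and 4.4 with everolimus, and *Ctsd*, the aspartic protease cathepsin D, at 112, 120 and 104 FPKM in normal liver tissue, 148, 142 and 172 with vehicle and 78.8, 96 and 74.1 with everolimus. *Lamp1*, a major protein of the lysosomal membrane, was at 389, 363 and 361 FPKM in normal liver tissue, 243, 227 and 262 with vehicle and 148, 176 and 152 with everolimus. Each of these had all everolimus libraries below all vehicle libraries. *Ctsh*, a cathepsin with aminopeptidase activity, was the member farthest below normal liver, at 113, 108 and 114 FPKM there and 9.26, 16 and 8.96 with everolimus. *Rragd*, a GTPase that tethers mTORC1 to lysosomes, went the other way and remained high, at 0.663, 0.403 and 0.574 FPKM in normal liver tissue, 25.8, 24.1 and 30.2 with vehicle and 25.9, 20.6 and 24.9 with everolimus, 43.5 times the normal mean.

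The promoters of some of these genes are shown because 2 short motifs are known for the factors named above. CACGTG, the E-box, is bound by TFEB, TFE3 and MYC, and TTGCATCA is the response element of ATF4 and its partners. The 250 bases before the RefSeq start site on GRCm38.p6 were searched on both strands. Windows are shown in gene orientation, 5′ to 3′, with only the motif named for each gene in capitals. From the lysosome genes lower than with vehicle, the first 3 by size of fall that hold the E-box more than once are shown. Lysosome genes with a smaller fall were not searched for repeats of it. The other 2 are the ATF4-list genes lower than with vehicle that hold the ATF4 motif. The *Nupr1* window also holds the E-box, left in lower case.
Lamp1, chr8:13158911-13159160, plus strand, E-box: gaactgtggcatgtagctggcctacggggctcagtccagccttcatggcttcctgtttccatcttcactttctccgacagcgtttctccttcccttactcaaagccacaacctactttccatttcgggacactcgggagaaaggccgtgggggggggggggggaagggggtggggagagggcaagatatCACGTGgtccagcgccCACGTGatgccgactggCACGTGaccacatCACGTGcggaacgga
Gla, chrX:134601006-134601255, minus strand, E-box: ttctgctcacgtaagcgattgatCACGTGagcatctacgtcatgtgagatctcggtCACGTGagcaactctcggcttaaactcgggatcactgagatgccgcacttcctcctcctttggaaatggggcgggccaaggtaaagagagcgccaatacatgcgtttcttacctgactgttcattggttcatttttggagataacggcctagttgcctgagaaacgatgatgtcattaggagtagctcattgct
Ctsd, chr7:142387828-142388077, minus strand, E-box: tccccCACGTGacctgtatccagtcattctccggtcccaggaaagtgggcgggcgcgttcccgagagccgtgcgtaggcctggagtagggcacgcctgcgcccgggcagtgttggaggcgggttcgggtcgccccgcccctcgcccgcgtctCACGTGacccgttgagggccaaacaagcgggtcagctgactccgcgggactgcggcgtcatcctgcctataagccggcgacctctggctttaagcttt
Slc7a11, chr3:50443614-50443863, minus strand, ATF4 motif: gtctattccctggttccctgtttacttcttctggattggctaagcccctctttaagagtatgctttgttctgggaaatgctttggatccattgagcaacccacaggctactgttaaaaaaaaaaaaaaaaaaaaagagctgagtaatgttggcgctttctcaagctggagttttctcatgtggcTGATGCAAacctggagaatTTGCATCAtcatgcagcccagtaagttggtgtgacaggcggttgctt
Nupr1, chr7:126625471-126625720, minus strand, ATF4 motif: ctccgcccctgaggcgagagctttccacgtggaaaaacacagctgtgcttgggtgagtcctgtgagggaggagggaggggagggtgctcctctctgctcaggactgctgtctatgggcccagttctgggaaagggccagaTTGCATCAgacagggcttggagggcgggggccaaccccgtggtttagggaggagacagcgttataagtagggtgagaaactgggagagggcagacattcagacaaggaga
The windows follow the RefSeq start, which lay 5391 bases from the GENCODE start for *Nupr1* and 0 to 211 bases from it for the other genes. The E-box stood in 4 places in the *Lamp1* window and in 2 in those of *Gla* and *Ctsd*, and the ATF4 motif in 2 places in that of *Slc7a11*, once on each strand. Of 43 lysosome genes with a promoter in the table, 12 (27.9%) held the E-box, against 871 of 10217 tested genes (8.53%) and 1631 of all 27025 promoters (6.04%). The share was 5 of 18 (27.8%) among lysosome genes lower than with vehicle and 7 of 25 (28%) among the others, so the motif did not separate them. The ATF4 motif stood in 5 of 27 genes of the ATF4 list (18.5%), in 2 of the 4 with a promoter that were lower than with vehicle, and in 61 of 10217 tested genes (0.597%). These shares describe the windows and carry no test, and the absence of a motif says only that its letters are not in the window.

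Most of the abundant genes of normal liver stayed lost. Of the 100 most abundant genes of normal liver, mitochondrially encoded ones aside, 89 were lower with everolimus, 11 were not called and 0 were higher, and 88 of them had been lower with vehicle too. Of all tested genes 18.4% were lower and 16.9% higher. Their median level was 7.60% of the normal liver mean, and 38 of the 100 were under 5%. The genes were chosen by the same normal liver values that they were compared with, which favors falls. Of the 100 most abundant genes with everolimus, chosen likewise, 28 were higher than in normal liver, 17 were lower and 55 were not called. The 100 genes of normal liver made up 47.1% to 47.8% of all FPKM in normal liver tissue and 25.5%, 20% and 27.8% in everolimus replicates 1 to 3. The short RNA gene *Gm23935*, which was not called, held 15.6%, 4.98% and 18.3% of the FPKM in these tumors and 5.66% to 7.55% in normal liver. Without it the shares were 40.3% to 41.4% in normal liver and 9.93%, 15.1% and 9.53% in the tumors, so the order of the tumors turned and replicate 2 was the highest. At the same FPKM sum 75 of the 100 were lower and 3 higher. *Alb*, albumin (chr5:90460897-90476602 of GRCm38), was at 57200, 66000 and 76600 FPKM in normal liver (replicates 1 to 3), 1780, 953 and 1840 with vehicle and 1320, 4860 and 851 with everolimus, with replicate 2 the high tumor. The mean was 3.52% of normal (log2 difference -5.23 ± 0.57, SE; treat adjusted p = 2.30e-05), and *Alb* was not called against vehicle (0.27, turning to -0.46 without everolimus replicate 2 and -0.04 without vehicle replicate 2).

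Secreted proteins as a group fell. Of 33 tested plasma protein genes 31 were lower than in normal liver and 0 higher, with a median of 15.4% of normal, and 21 were lower and 1 higher at the same FPKM sum. *Serpina3k*, a protease inhibitor of plasma whose close copies share reads, was the lowest, at 0.851% of normal, and *Apoa1*, the main protein of high-density lipoprotein, was at 10900, 10500 and 9590 FPKM in normal liver tissue and 1030, 1760 and 1250 with everolimus. *Itih3* and *Apoa4* were the members not called. *Ttr*, the carrier of thyroxine and retinol, was lower with everolimus (453, 716 and 538 FPKM) than with vehicle (1660, 1120 and 1730), which was itself below normal liver (7310, 8420 and 8120). Its log2 difference from vehicle was -1.40 (moderated adjusted p = 0.0325), and the call was lost without everolimus replicate 1 (0.128), everolimus replicate 3 (0.0874), vehicle replicate 1 (0.107) or vehicle replicate 3 (0.121).

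Complement and coagulation factors had 27 of 30 members lower and 0 higher, with a median of 15.7% of normal. *C9*, the pore-forming component of complement, was at 771, 459 and 728 FPKM in normal liver tissue and 7.97, 25.7 and 6.67 with everolimus. *F2*, prothrombin, was at 633, 686 and 556 FPKM in normal liver tissue and 109, 131 and 96.3 with everolimus. *Mbl2*, a mannose-binding lectin that starts complement, fell from normal liver to vehicle and again with everolimus, from 865, 737 and 753 FPKM in normal liver tissue to 108, 48.9 and 137 with vehicle and 11.3, 28.6 and 10.6 with everolimus (log2 difference from vehicle -2.49 ± 0.39, SE; moderated adjusted p = 0.00340). *Serpinf2*, *Masp2* and *Cfb* were not called against normal liver.

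The major urinary proteins, pheromone carriers that male mouse liver makes in great amount, were at a trace of their normal level. Of 18 tested *Mup* genes 17 were lower, with a median of 0.0866% of normal and a highest value of 3.50%. Their summed FPKM were 33482, 13298 and 26184 in normal liver, 38.8, 5.51 and 50.6 with vehicle and 68.7, 205 and 122 with everolimus. The members are near copies of each other, so reads can be split among them and only the sum is secure. The libraries of all 3 groups came from male tissue by their transcripts, since Y-linked *Ddx3y* was at 9.6 to 52.8 FPKM and *Xist* at 0.00885 to 0.0267. *Hsd3b5*, a hydroxysteroid dehydrogenase of male liver, was at 658, 477 and 438 FPKM in normal liver tissue, 0 in every vehicle-treated tumor and 0.273, 0.128 and 0.337 with everolimus.

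Among the 12 genes with the largest fall were 4 *Mup* genes and enzymes. *Inmt*, a methyltransferase of indoles and thioethers, was at 1210, 1300 and 1850 FPKM in normal liver tissue, 0.904, 0.178 and 1.05 with vehicle and 7.25, 1.55 and 1.88 with everolimus (log2 difference from normal liver -8.51 ± 0.66, SE; treat adjusted p = 1.33e-06). *Car3*, a carbonic anhydrase, was at 1400, 1240 and 2110 FPKM in normal liver tissue and 10.8, 1.81 and 9.47 with everolimus. *Ces3b*, a carboxylesterase, was at 396, 334 and 385 FPKM in normal liver tissue and 0.949, 0.451 and 0.485 with everolimus, and *Cyp4a12a*, a fatty acid hydroxylase of male liver, at 450, 337 and 406 and 0.918, 2.52 and 1.16. The tumors lay far below the lowest normal liver for each of these, and everolimus replicate 2 was the lowest drug-treated tumor for *Inmt*, *Car3* and *Ces3b*.

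Genes of xenobiotic metabolism had the lowest median of the 25 lists. Of 49 tested cytochrome P450 and conjugation genes 45 were lower and 0 higher, with a median of 3.42% of normal, and 41 were still lower at the same FPKM sum. *Cyp1a2*, which oxidizes caffeine, was at 646, 643 and 608 FPKM in normal liver tissue and 7.39, 3.86 and 6.78 with everolimus. *Sult2a8*, a sulfotransferase of bile acids, was at 891, 692 and 985 FPKM in normal liver tissue and 2.43, 1.53 and 1.72 with everolimus, 0.221% of normal. *Ugt2b1*, a glucuronosyltransferase, was at 1320, 875 and 1100 FPKM in normal liver tissue and 4.49, 6.11 and 3.21 with everolimus. Against vehicle 7 of the 49 were higher and 5 lower, where 2.03% and 4.69% of all tested genes were. *Cyp2a5*, which oxidizes coumarin, was one that went further down, from 438, 559 and 672 FPKM in normal liver tissue to 152, 70.9 and 305 with vehicle and 17.3, 48.6 and 22.9 with everolimus, and *Gsta1*, a glutathione transferase, was raised with vehicle (16.4, 7.1 and 25.4 FPKM) and lower with everolimus (0.443, 1.8 and 1.43), against 0.097, 0.285 and 1.2 in normal liver.

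Bile acid genes fell in 19 of 22 cases with 0 rises. *Cyp7a1*, the rate-limiting enzyme of bile acid synthesis, was at 54.4, 36.5 and 64 FPKM in normal liver tissue, 5.5, 1.24 and 7.89 with vehicle and 2.56, 2.52 and 5.38 with everolimus, 6.75% of normal. *Cyp7b1*, of the alternative pathway, was at 494, 216 and 271 FPKM in normal liver tissue and 1, 3.02 and 1.52 with everolimus, and *Slc10a1*, the importer of bile acids from blood, at 435, 598 and 581 FPKM in normal liver tissue and 28.3, 25.9 and 27 with everolimus. The export pumps *Abcb11* and *Abcb4* were not called.

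Nitrogen metabolism was lost unevenly. Of 37 genes of the urea cycle and amino acid breakdown, 29 were lower and 1, *Gldc* of glycine cleavage, was higher, and 17 were lower and 3 higher at the same FPKM sum. *Cps1*, the entry enzyme of the urea cycle, was at 647, 633 and 848 FPKM in normal liver tissue and 448, 328 and 305 with everolimus, was not called (log2 difference -0.98) and turned to 0.20 at the same FPKM sum, whereas *Arg1*, the last enzyme of the cycle, was at 1640, 1420 and 1780 FPKM in normal liver tissue and 103, 143 and 69.8 with everolimus (log2 difference -3.98). *Tat*, which degrades tyrosine, was at 764, 1040 and 1670 FPKM in normal liver tissue, 150, 75.4 and 185 with vehicle and 14.2, 56.8 and 32.3 with everolimus. Its further fall with the drug (-2.07, moderated adjusted p = 0.0191) was not called with only the libraries compared (0.0636) or without everolimus replicate 1 (0.0718), vehicle replicate 1 (0.0700) or vehicle replicate 3 (0.0870). *Tdo2*, which opens the tryptophan ring, was at 1660, 1080 and 1810 FPKM in normal liver tissue and 28.5, 51.8 and 28.5 with everolimus.

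Energy metabolism genes also fell. Of 31 genes of fatty acid oxidation and ketone body synthesis 25 were lower and 1 higher, with a median of 25.9% of normal, but 7 were lower and 1 higher at the same FPKM sum. *Fabp1*, the liver fatty acid-binding protein, was at 21000, 17900 and 16700 FPKM in normal liver tissue and 446, 532 and 506 with everolimus. The gene that was higher than in normal liver was *Pdk4*, a kinase that restrains pyruvate oxidation, at 0.898, 1.14 and 1.56 FPKM in normal liver tissue and 3.02, 17.6 and 18.6 with everolimus. Of 21 genes of gluconeogenesis and glycogen 12 were lower and 2 higher, and 7 and 3 at the same FPKM sum. *Pck1*, the cytosolic enzyme that starts gluconeogenesis, was at 1070, 1290 and 1230 FPKM in normal liver tissue and 7.7, 116 and 18.2 with everolimus, with replicate 2 far above the other tumors, whereas *Pck2*, its mitochondrial isozyme, was higher than normal at 20.3, 16.2 and 24.2 FPKM against 1.12, 1.53 and 0.908. Cholesterol and fatty acid synthesis had 18 of 38 genes lower and 3 higher, and 6 lower and 7 higher at the same FPKM sum.

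Transcription factors of hepatocyte identity were mostly lower as well. Of 21 tested, 13 were lower than in normal liver and 0 higher, with a median of 29.8% of normal, and 3 were lower and 2 higher at the same FPKM sum. *Hnf4a*, the nuclear receptor central to hepatocyte identity, was at 217, 239 and 199 FPKM in normal liver tissue, 113, 91.4 and 107 with vehicle and 83.8, 91.6 and 91.3 with everolimus, or 40.7% of normal (log2 difference -1.28 ± 0.15, SE; treat adjusted p = 0.00114). That call was lost at the same sum (-0.10) and with plain totals (-0.34). *Cebpa*, which restrains hepatocyte division, was at 477, 363 and 309 FPKM in normal liver tissue and 63, 64.1 and 61.8 with everolimus, and *Nr1h4*, the bile acid receptor, at 106, 98.2 and 114 FPKM in normal liver tissue and 18.1, 19.5 and 16.3 with everolimus. Of 20 pericentral genes, active in hepatocytes around the central vein, 16 were lower and 1 higher. *Glul*, glutamine synthetase, was at 420, 391 and 409 FPKM in normal liver tissue, 78.7, 61.6 and 95.2 with vehicle and 52.5, 52.6 and 64.5 with everolimus.

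**Figure D3:**
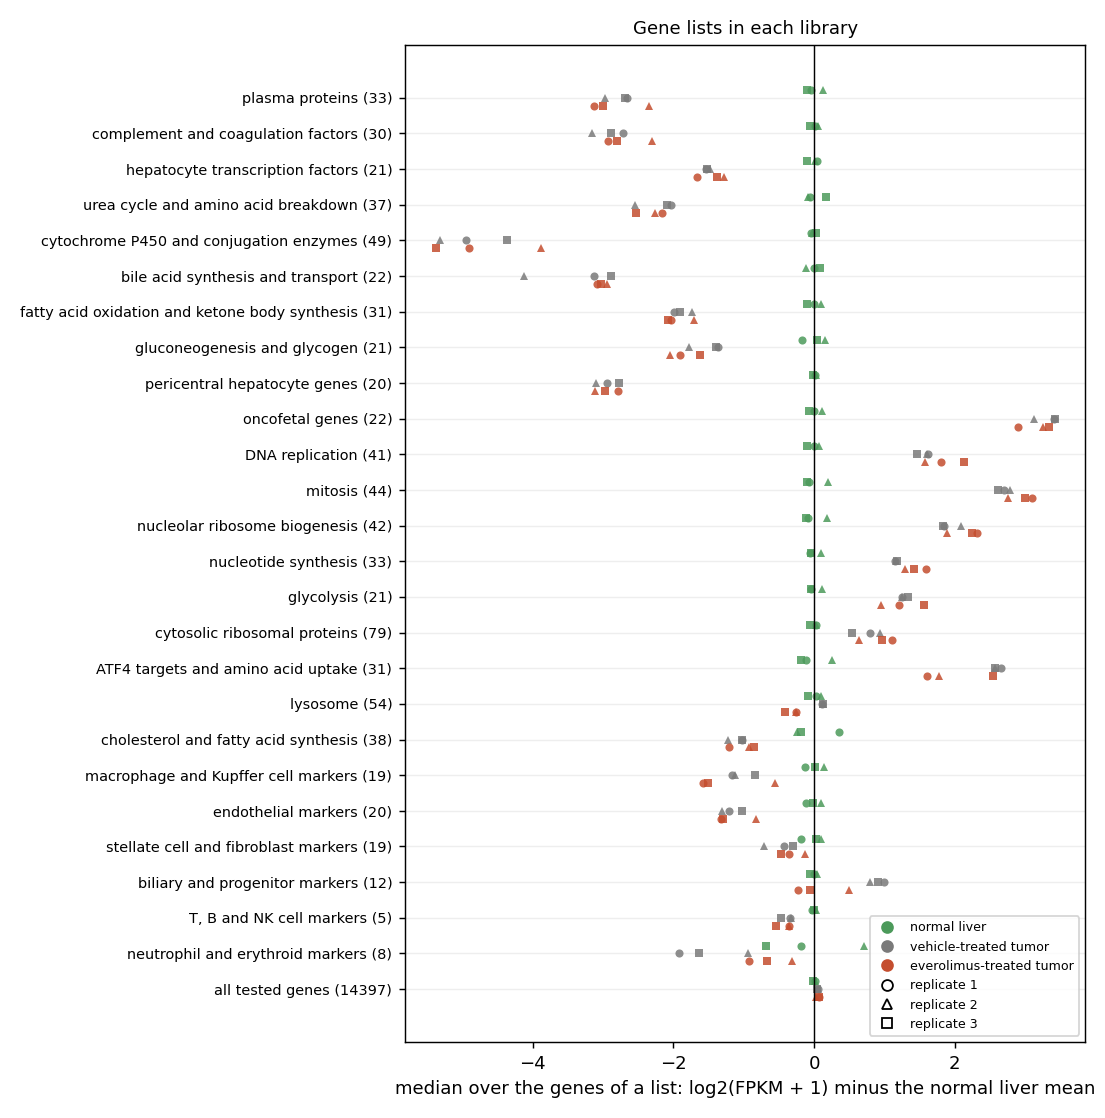
Median over the genes of each list of the log2(FPKM + 1) value minus the normal liver mean, in each library, with the number of tested genes in brackets. Each symbol is 1 library, and liver lists lie to the left of 0 and growth and oncofetal lists to the right in both tumor groups. For the lysosome, biliary and ATF4 lists the 3 everolimus libraries lie to the left of the 3 vehicle libraries. For the nucleotide synthesis list and the neutrophil and erythroid list they lie to the right of them.

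The genes that returned were few and mostly returned to a small part of their normal level. Of the 58, 19 were under 5% of normal and 12 were at 50% or more, and their median was 26.4% of normal with everolimus against 7.38% with vehicle. In 57 of the 58 all everolimus libraries lay above all vehicle libraries, which follows largely from the choice of the class by that same comparison. In 52 they lay below all normal livers, where 35.4% of all tested genes did, and the class was chosen for being low in vehicle-treated tumors. Among the 10 with the largest rise were P450 enzymes and secreted proteins. *Cyp2e1*, the ethanol-oxidizing P450, was at 4220, 5550 and 4240 FPKM in normal liver (replicates 1 to 3), 10.2, 1.56 and 28.6 with vehicle and 75.3, 118 and 51.5 with everolimus, a rise over vehicle of 3.04 ± 0.67 on the log2 scale (SE; moderated adjusted p = 0.0170) that reached 1.75% of normal. *Mup3* was at 13.1, 1.95 and 18.8 FPKM with vehicle and 54.1, 101 and 62.4 with everolimus (0.405% of normal), and *Serpina3k* at 6.19, 2.38 and 10.7 FPKM with vehicle and 37.6, 101 and 17.8 with everolimus (0.851%). *Ces3a*, a carboxylesterase, rose from 0.977, 0.0361 and 3.33 to 10.5, 17.4 and 6.54 FPKM (0.998% of normal) and *Cyp2c50* from 1.01, 0.13 and 2.57 to 10.2, 9.37 and 4.35 (1.36%). These genes thus rose from traces to a level that was still a small part of normal. *Cyp2c54*, *Akr1c6* and *Wfdc21* belonged to the same group of 10 with the largest rise, at 1.22%, 1.30% and 4.42% of normal.

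Some returned genes reached a larger share of normal. *Gatm*, the first enzyme of creatine synthesis (chr2:122594467-122611303 of GRCm38), was at 8.96, 9.52 and 9.45 FPKM in normal liver tissue, 2.35, 2.34 and 2.29 with vehicle and 80.5, 43 and 61 with everolimus. It was the 1 returned gene that ended above normal liver, by 2.56 ± 0.36 on the log2 scale (SE; treat adjusted p = 4.95e-04), after a rise over vehicle of 4.19 ± 0.36 (SE; moderated adjusted p = 7.45e-05). *Igfbp2*, a binding protein of insulin-like growth factors, was at 342, 498 and 448 FPKM in normal liver tissue, 32.1, 18.5 and 47.6 with vehicle and 184, 144 and 171 with everolimus, 38.7% of normal. *Nr0b2*, the bile acid-induced repressor SHP, was at 21.4, 63.7 and 34.7 FPKM in normal liver tissue, 1.32, 5.03 and 1.63 with vehicle and 8.18, 17.3 and 11.6 with everolimus (log2 difference from vehicle 1.95, moderated adjusted p = 0.0241). *Shmt1*, the cytosolic enzyme that moves one-carbon units from serine, was at 59.2, 60.7 and 57 FPKM in normal liver tissue, 25, 32 and 22.4 with vehicle and 50.1, 41.9 and 41.9 with everolimus, 75.7% of normal (log2 difference from vehicle 0.74, moderated adjusted p = 0.0189). *Srebf1*, the activator of lipid synthesis genes, was at 63, 52.5 and 74.2 FPKM in normal liver tissue, 12.6, 10.5 and 11.8 with vehicle and 23, 24.9 and 21.5 with everolimus and was still lower than in normal liver. Neither *Igfbp2*, *Nr0b2* nor *Shmt1* was called against normal liver with all libraries. For all 3 every everolimus library lay below every normal liver. *Igfbp2* was called lower with only the libraries compared (treat adjusted p = 0.00764), and *Nr0b2* by voom on recovered reads (0.0399) and without normal liver replicate 1 (0.0328). The small remaining difference of *Shmt1* turned from -0.40 to 0.76 at the same FPKM sum and to 0.53 with plain totals.

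The size of the returned class depended on the call rule, the pseudocount and single libraries. It was 58 as called here, 2 with treat against vehicle and the moderated test against normal liver, 115 with a pseudocount of 0.1 and 107 by voom. It was 26 when everolimus replicate 1 was left out, and 34 when either vehicle replicate 1 or vehicle replicate 3 was. Vehicle replicate 2 was the lowest of its group in 31 of the 58, and everolimus replicate 2 the highest of its group in 31. How often either was so over all tested genes was not counted. Without everolimus replicate 1, calls were lost for *Cyp2e1* (moderated adjusted p = 0.0591), *Akr1c6* (0.0802), *Wfdc21* (0.0562) and *Shmt1* (0.0866). Without everolimus replicate 2 they were lost for *Akr1c6* (0.0673), *Wfdc21* (0.0704) and *Nr0b2* (0.0582), and without everolimus replicate 3 for *Nr0b2* (0.0609). Without vehicle replicate 1 they were lost for *Wfdc21* (0.0517), *Nr0b2* (0.0922) and *Shmt1* (0.0690), without vehicle replicate 2 for *Wfdc21* (0.0671), and without vehicle replicate 3 for *Nr0b2* (0.0976) and *Shmt1* (0.0896). The rise of *Akr1c6*, 2.28 with all libraries, was 1.51 without vehicle replicate 2. The calls of *Gatm*, *Igfbp2*, *Mup3*, *Serpina3k*, *Ces3a*, *Cyp2c50* and *Cyp2c54* held with each library left out in turn. With only the libraries compared, however, calls were lost for *Mup3* (0.0515), *Serpina3k* (0.0620), *Cyp2e1* (0.0727), *Akr1c6* (0.0863) and *Wfdc21* (0.0882).

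**Figure D4:**
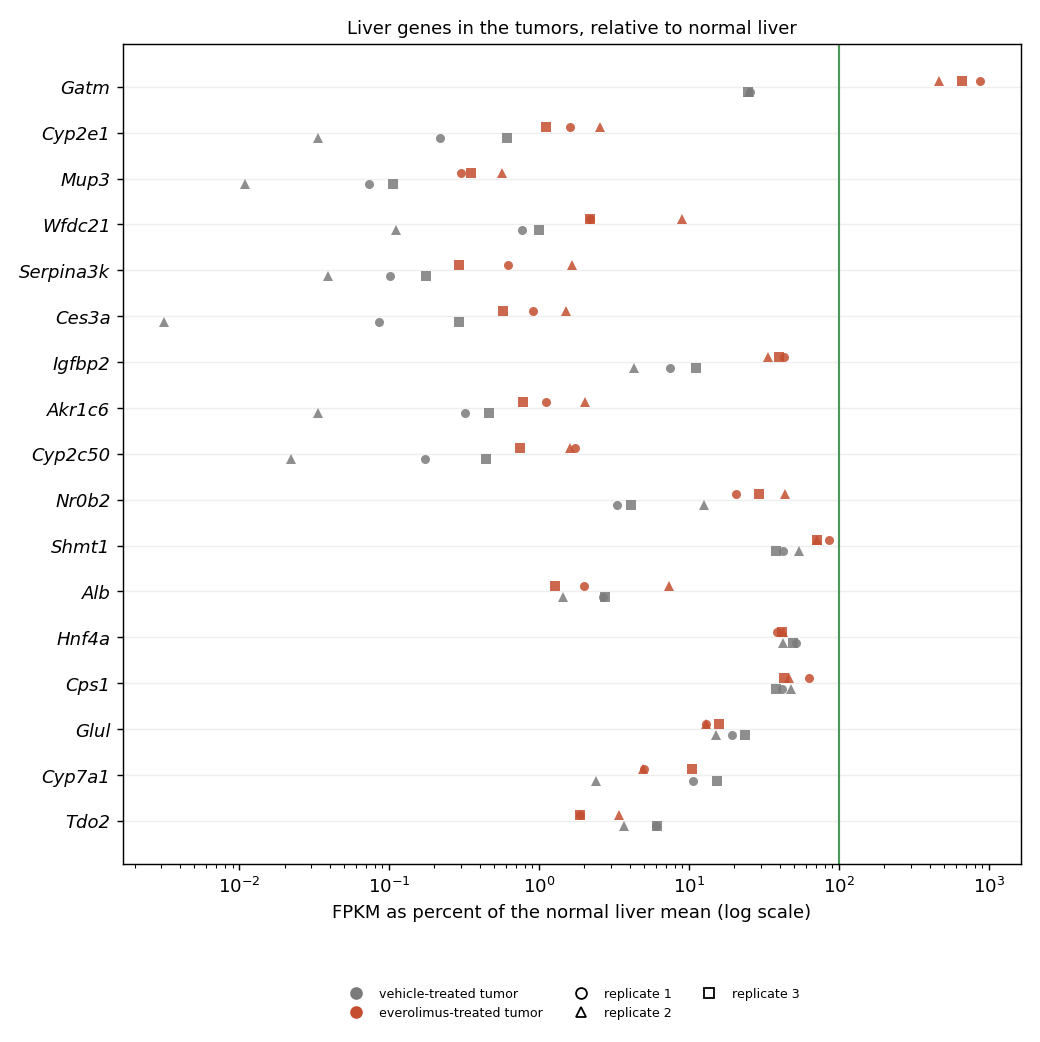
FPKM in each tumor library as percent of the normal liver mean, on a log axis, for 9 of the 10 returned genes with the largest rise and 8 liver genes named in the text; *Cyp2c54* is left out because 1 vehicle value is 0. Each symbol is 1 library and the vertical line marks 100%; everolimus lies to the right of vehicle for the 9 genes and *Nr0b2* and *Shmt1*, but beyond the line only for *Gatm*, whereas for *Alb*, *Cps1* and *Cyp7a1* the tumor groups overlap.

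In the FPKM as deposited, summed markers of most other cell types were below normal liver, and everolimus replicate 2 held more of them than the other everolimus-treated tumors. Of 19 macrophage and Kupffer cell markers 9 were lower and 0 higher with everolimus, and 12 were lower without replicate 2. At the same FPKM sum 0 were lower and 2 higher. The summed FPKM of the list were 465, 584 and 521 in normal liver and 144, 353 and 158 with everolimus. *Clec4f*, the defining lectin of Kupffer cells, was at 77.1, 82.2 and 83.6 FPKM in normal liver tissue and 6.66, 26.2 and 5.96 with everolimus. Of 20 endothelial markers 12 were lower and 0 higher, 13 and 0 without replicate 2 and 4 and 0 at the same FPKM sum, and the sums were 138, 169 and 154 FPKM in normal liver tissue and 33, 60.9 and 35.1 with everolimus. The sinusoidal endothelial gene *Clec4g* was at 26.5, 28 and 29.9 FPKM in normal liver tissue and 0.215, 0.792 and 0.163 with everolimus. As deposited, both sums were higher in every normal liver than in any tumor. However, all FPKM together came to 764004 to 779803 in normal liver, 317930 to 346862 with vehicle and 291390 to 369672 with everolimus. The sums were not rescaled for this, so their order against normal liver depends on the scaling. The part of these cells in the liver gene losses was not tested.

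Stellate cell and fibroblast markers were mixed, with 8 of 19 lower and 4 higher, where 18.4% and 16.9% of all tested genes were. At the same FPKM sum 5 were lower and 7 higher. The collagen gene *Col1a1* was at 0.48, 1.35 and 0.686 FPKM in normal liver tissue and 18.8, 17.8 and 21.1 with everolimus, while *Dcn*, a matrix proteoglycan, was at 43, 46.5 and 62.3 FPKM in normal liver tissue and 4.67, 11.2 and 3.84 with everolimus. Of 5 tested T, B and NK cell markers, limma's treat test called 0 against normal liver (3 were lower at an unadjusted moderated p under 0.05, and 1 was lower by voom on the recovered reads), and their sums were 9.66, 10.3 and 9.4 in normal liver and 3.46, 6.54 and 3.42 with everolimus. Of 8 neutrophil and erythroid markers 2 were lower than in normal liver, where 18.4% of all tested genes were. From the same list 2 hemoglobin genes, whose close copies share reads, were higher than with vehicle, where 2.03% of all tested genes were. These were *Hba-a1*, which was not called when any 1 of the 6 tumor libraries was left out, and *Hbb-bt*, which was not called when any of them but vehicle replicate 2 was. Summed FPKM of that list were 371, 671 and 292 in normal liver, with replicate 2 high, 39.4, 93.1 and 65.5 with vehicle and 109, 138 and 125 with everolimus. These sums were higher with everolimus than with vehicle in all 3 libraries, and their part in the returned genes was not tested. For the biliary list the sums were 82.3, 75.7 and 73.7 in normal liver, 135, 187 and 189 with vehicle and 70.7, 125 and 84.9 with everolimus.

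**Figure D5:**
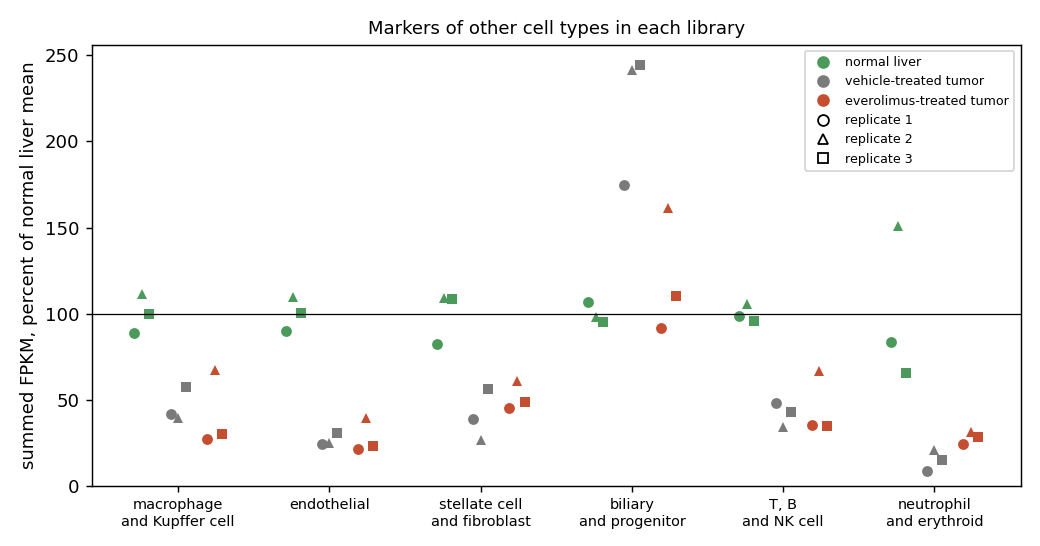
Summed FPKM of the marker lists of other cell types in each library, as percent of the normal liver mean, which the horizontal line marks. The FPKM are as deposited and were not rescaled to the same sum, on which the order against normal liver depends. Each symbol is 1 library; tumors lie below normal liver for all lists but the biliary one, which is high with vehicle, and everolimus replicate 2 (triangle) is the highest everolimus library for every list.

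The same library was also higher in many liver genes. Everolimus replicate 2 was the highest of the 3 everolimus-treated tumors for 1413 of the 2216 genes that stayed lost. How often it was the highest over all tested genes was not counted. Without everolimus replicate 2, 2524 genes were higher and 2631 lower than in normal liver, close to the counts with it. The list medians show its size: for plasma proteins the median log2 difference from the normal liver mean was -3.13, -2.35 and -3.00 in everolimus replicates 1 to 3, and for cytochrome P450 and conjugation genes -4.91, -3.88 and -5.38. For the mitosis list, by contrast, the medians were 3.10, 2.75 and 2.99, so replicate 2 was also the lowest in cell division genes. How much normal tissue each tumor library held was not tested.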

How the data were processed

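Bulk RNA-seq of mouse liver and liver tumors had been made from poly(A)-captured or ribosomal RNA-depleted RNA, sequenced at Novogene and counted per Ensembl gene. The authors deposited these values as FPKM, rounded to 3 significant digits, with a scaling between libraries beyond the library totals. The submitters' processing notes name FastQC 0.11.7 and GRCm38, and the aligner, counter and gene lengths are not given in the sources used here. FPKM replaced the counts that the study tested.

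Of 17007 listed rows, 16864 symbols matched GENCODE M21, which gave identifiers and positions, and 22 had been turned into dates. A gene was tested if 3 or more of the 12 libraries reached 0.5 FPKM, which left 14397, as log2(FPKM + 1) with limma 3.58.1 in R 4.3.3, in 1 model of the 4 groups with 8 residual degrees of freedom, an intensity trend and Benjamini-Hochberg adjustment over all tested genes. Tumors were compared with normal liver by treat with a fold change of 1.5, and everolimus with vehicle by the moderated test together with a change of over 1.5-fold, both at an adjusted p under 0.05. A permutation of 3 against 3 libraries could not go below an exact p of 0.1. The labels do not say that replicates are separate animals, so p-values measure only the spread between these libraries. Reads were recovered by dividing each low value by what 1 read was worth: 98.2% to 98.8% of values under 20 reads lay within 0.1 of a whole number, where chance gives 20%. Counting limits cover counting error only. The fits were tested on simulated data.

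Members, the 25 gene lists and the rule for named genes were chosen with earlier results of these data known. The rule took the 12 largest rises and falls against normal liver, the 10 largest among returned and receded genes, leaving out unnamed gene models, up to 4 genes of each list and 18 fixed genes. Other genes were named for their known roles after their values were seen. Promoters came from RefSeq.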

Additional observations from a re-analysis of the deposited data

How the results depend on the processing

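At the same FPKM sum 5956 genes were higher and 927 lower than in normal liver, 778 stayed lost and 5254 remained. With library totals alone, an alternative added once the data had been seen, these were 5196, 1156, 968 and 4414. Under the other call rule (the moderated test where treat was used, and the reverse) 3961 genes were higher than in normal liver, 5 higher and 82 lower than with vehicle, 3355 stayed lost, 2 returned, 3183 remained and 75 receded. With a pseudocount of 0.1, 115 genes returned. With voom on recovered reads, added likewise, 494 genes were higher than with vehicle and 107 returned. The cause of these shifts was not tested. Over the 9 fits that each lacked 1 library, the counts against normal liver ran from 2145 to 2524 higher and from 2417 to 2638 lower, 112 to 393 higher and 367 to 802 lower than with vehicle, 2018 to 2178 stayed lost, 26 to 62 returned, 1633 to 1857 remained and 179 to 297 receded.

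Log2 differences from normal liver changed sign at the same FPKM sum and with plain totals for *Tsc2* (0.28 and 0.091), *Rictor* (0.57 and 0.41), *Shmt1* (0.76 and 0.53), *Hexa* (0.47 and 0.24), *Epcam* (0.35 and 0.24) and *Hba-a1* (0.34 and 0.10), and for *Cps1* at the same sum (0.20). Centred on the median, *Krt19* turned to -0.037 and *Fabp3* to -0.067. With 1 library left out, differences from normal liver ran from -0.10 to 0.22 for *Krt19*, -0.094 to 0.25 for *Fabp3* and -0.49 to 0.035 for *Epcam*, and differences from vehicle from -0.23 to 0.34 for *Myc*, -0.46 to 0.79 for *Alb* and -0.82 to 0.18 for *Cyp7a1*. None of these differences was called with all libraries.

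The replicate numbers did not pair the samples: same-numbered deviations correlated at -0.03, -0.04 and -0.08 between everolimus and normal liver and at 0.05, -0.29 and -0.21 between everolimus and vehicle. With a replicate block 2353 genes were higher and 2593 lower than in normal liver, 240 higher and 565 lower than with vehicle, and 43 returned. Of the calls against vehicle named above, those of *Ttr*, *Akr1c6* and *Wfdc21* were not made with it (adjusted p = 0.0539, 0.0555 and 0.0597), and *Nr0b2* was called lower than normal liver (adjusted p = 3.08e-04). Values under 0.0495 to 0.144 FPKM, 3 reads on 2 kb, were at the limit of depth.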

Other observations

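The remnant of drug-metabolizing gene families was read as sums. Of 13 tested *Cyp2c* genes, P450 enzymes of drugs and fatty acids, 12 were lower than in normal liver and 3 higher than with vehicle, and their summed FPKM were 4188, 3758 and 3777 in normal liver replicates 1 to 3, 119, 88.2 and 111 with vehicle and 121, 147 and 87.3 with everolimus. Of 7 tested *Ugt2b* genes, which attach glucuronic acid to steroids and drugs, 7 were lower than in normal liver and 2 lower than with vehicle. Their sums were 4982, 4055 and 4503 in normal liver, 171, 193 and 219 with vehicle and 84.1, 150.1 and 86.5 with everolimus, so each drug-treated tumor lay below each vehicle-treated one. The difference between the families was not tested, and close copies within each share reads.

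*Atp6v0e2*, which codes for a proton pump subunit, was at 0.623, 0.381 and 0.362 FPKM in normal liver tissue, 4.29, 4.3 and 4.15 with vehicle and 0.845, 0.971 and 0.657 with everolimus. It was lower than with vehicle by limma's moderated test (log2 difference -1.53 ± 0.14, SE; adjusted p = 1.10e-04) and was not called against normal liver. The 3 *Per* genes of the circadian clock summed to 21.4, 23.8 and 27.5 FPKM in normal liver tissue, 11.3, 14.2 and 11.1 with vehicle and 14.8, 18.1 and 13.8 with everolimus, with 2 of the 3 higher than with vehicle. The hour of sacrifice is not given in the sources used here. Mitochondrially encoded genes made up 13.5% to 15.8% of the FPKM in normal liver tissue, 8.07% to 10.9% with vehicle and 7.48% to 8.69% with everolimus.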
